A study of Mus musculus with 9 samples.

Results

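The immediate early AP-1 and Myc genes were a set of 10 protein-coding genes, found by their symbols among the 54532 genes of the deposited table. They were the 4 FOS family genes Fos, Fosb, Fosl1 and Fosl2, the 3 JUN family genes Jun, Junb and Jund, and the factor genes Egr1, Atf3 and Myc. On GRCm38 they lie at chr12:85473890-85477273 (Fos), chr7:19302696-19310051 (Fosb), chr19:5447703-5455945 (Fosl1), chr5:32135801-32157842 (Fosl2), chr4:95049034-95052222 (Jun), chr8:84974484-84978718 (Junb), chr8:70698949-70700616 (Jund), chr18:34859823-34864984 (Egr1), chr1:191170296-191218039 (Atf3) and chr15:61985391-61990374 (Myc). All 10 were counted in each of the 9 libraries and passed the filter on low counts in each comparison. RNA sequencing had been carried out on cells grown from ventricular epicardium of 6-week-old C57BL/6 mice through cardiospheres, the floating clusters that give cardiosphere-derived cells. The pECDC group held 3 libraries of primary cells, titled P0 in the labels and given as passage 3 in the culture methods. The iECDC group held 3 libraries at passage 30 of such cells made immortal with a lentivirus that carried hTERT, the catalytic subunit of human telomerase, under puromycin selection. The SBT group held 3 libraries that the labels give as immortalized cells at passage 30 exposed for 3 days to SB431542, a small molecule that blocks the kinase of the type I TGF-β receptor. The study's methods instead name an epithelial clone derived from pECDCs as the treated cells. Its discussion describes such clones as seen 10 days after treatment. The parent cells of the SBT group and its length of exposure are therefore uncertain, and every comparison with this group rests on the labels. By the labels, the iECDC and pECDC groups differ in passage, hTERT and selection together. The SBT and pECDC groups differ in these and in SB431542. Within a comparison these factors cannot be told apart, and no group used here is given as vehicle-treated. The study's methods call the replicates biological, but with a number per condition that differs from the libraries used here. A figure legend on the RNA sequencing of pECDCs and iECDCs gives n = 3, as here. Neither says whether the replicates were separate cultures or animals. The p-values measure the spread between these samples, which may be in part technical.

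Immediate early genes are transcribed within minutes of a growth factor, serum or stress signal, without new protein synthesis, through factors such as SRF and CREB that already sit on their promoters. FOS and JUN proteins pair into AP-1, which binds its sites in genes for matrix-degrading enzymes, cytokines and cell cycle regulators. MYC pairs with MAX and drives genes for ribosome assembly and metabolism, and TGF-β is known to lower Myc transcription in epithelial cells. The RNAs of these genes are short-lived.

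The 250 bases before the RefSeq transcription start (GRCm38.p6) were available for 7 of the 10 genes, and 4 of these are shown. Fos and Fosb are the textbook pair of serum-induced promoters, of which Fosb alone was called here, Jun was called in both passage 30 groups against pECDCs, and Atf3 had the largest fold change of the 10. Each is written 5′ to 3′ on the strand of the gene, in lower case, with the letters of the motifs found in capitals. The Fos sequence is chr12:85473640-85473889 on the plus strand, the Fosb sequence chr7:19310046-19310295, the Jun sequence chr4:95052223-95052472 and the Atf3 sequence chr1:191183334-191183583, the last 3 on the minus strand.
Fos: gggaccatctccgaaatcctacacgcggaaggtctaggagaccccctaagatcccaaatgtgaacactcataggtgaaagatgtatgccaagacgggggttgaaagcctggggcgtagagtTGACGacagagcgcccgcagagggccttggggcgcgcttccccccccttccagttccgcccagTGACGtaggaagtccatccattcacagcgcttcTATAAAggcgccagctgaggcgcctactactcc
Fosb: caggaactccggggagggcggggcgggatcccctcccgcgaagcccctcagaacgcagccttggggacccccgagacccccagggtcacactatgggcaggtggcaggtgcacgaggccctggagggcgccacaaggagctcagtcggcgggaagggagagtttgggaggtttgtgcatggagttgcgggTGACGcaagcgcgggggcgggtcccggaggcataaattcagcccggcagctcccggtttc
Jun: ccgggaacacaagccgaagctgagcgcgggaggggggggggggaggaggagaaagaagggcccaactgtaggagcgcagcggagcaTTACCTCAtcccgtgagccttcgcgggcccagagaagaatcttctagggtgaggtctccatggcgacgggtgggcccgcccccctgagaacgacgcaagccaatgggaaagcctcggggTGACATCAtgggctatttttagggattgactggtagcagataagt
Atf3: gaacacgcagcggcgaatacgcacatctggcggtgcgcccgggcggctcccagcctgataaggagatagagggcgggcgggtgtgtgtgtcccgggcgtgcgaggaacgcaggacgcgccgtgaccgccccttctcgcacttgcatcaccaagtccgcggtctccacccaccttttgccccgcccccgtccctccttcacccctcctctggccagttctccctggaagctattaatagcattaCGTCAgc
The capitals in Fos mark the short CRE letters TGACG at 129 to 125 and at 66 to 62 bases before the start and the TATA box TATAAA at 33 to 28 bases before it. In Fosb they mark TGACG at 60 to 56 bases before the start, and in Atf3 the same letters on the other strand (CGTCA) at 7 to 3 bases before it. In Jun they mark TGACATCA at 45 to 38 and TTACCTCA at 164 to 157 bases before the start, a pair of variant AP-1 letters that were added to the search after the sequences had been seen. All motifs were searched on both strands except TATAAA, which was searched on the strand of the gene, and TGACG also lies within the full CRE TGACGTCA. Of 32851 promoter windows of the same length, 17.8% held TGACG, 7.59% TATAAA, 2.93% TGACATCA and 0.728% TTACCTCA. No match was found in the 7 windows to TGACGTCA (1.55% of all windows), TGACTCA (4.46%), CACGTG (6.02%) or the CArG box (1.47%). Bases farther than 250 before the start were not searched, and Fosl1, Egr1 and Myc had no window. The absence of a match in a window therefore does not mean that a gene lacks the site. The RefSeq start of Atf3 lies 34706 bases inside the deposited gene, which begins at a more distant start. The RefSeq start of Fosl2 lies 671 bases inside its deposited gene, and that of Jund 1210 bases before it. For these genes the bases just before the deposited start were not searched.

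The counts of the 9 libraries summed to between 16568306 and 23951392. SBT replicate 2 and iECDC replicate 3 stood apart from the other libraries of their groups. The chi-square of counts over genes per degree of freedom was 2.70 to 4.23 between pECDC libraries. It was 4.61 between iECDC replicates 1 and 2 and 3.79 between SBT replicates 1 and 3, but 24.9 and 30.8 for the pairs with iECDC replicate 3 and 70.3 and 71.5 for those with SBT replicate 2. Among 2345 genes that differed at least 2-fold between SBT and iECDC libraries when SBT replicate 2 was left out, that library had a median 48.4% of the log2 difference of the other SBT libraries (quartiles 28.7% and 69.0%). Called values of the 10 genes in a comparison that holds either library are therefore also given without it, and list counts without each library that moved them by over 1.5 times. The markers Eng and Thy1 of cardiosphere-derived cells were counted at 4988 to 9343 reads in every library, and Ly6a at 94 or more. The epicardial marker Tbx18 was counted at 1366 to 3564 reads, whereas Wt1 had 0 to 14 in the untreated libraries and 14 to 43 in the SBT libraries. Endothelial markers summed to at most 0.165 FPKM. Of the 4 cardiomyocyte markers, Myh6, Actn2 and Ryr2 had 0 to 4 counts in any library, but Tnnt2, the gene of cardiac troponin T, had 83 to 101 counts per pECDC library, 133 to 262 per iECDC library and 7 to 34 per SBT library. Tnnt2 was higher in iECDCs than in pECDCs (log2 fold change 1.36, edgeR adjusted p = 0.00202, and 1.51 without iECDC replicate 3) and lower in SBT than in iECDC libraries (-3.07, edgeR adjusted p = 0.00378, and -2.59 without SBT replicate 2). It was also lower than in pECDCs (-1.71, and -1.22 without SBT replicate 2), a call lost without any 1 pECDC library or SBT replicate 3. Its part in the results on the 10 genes was not tested.

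In iECDCs, Fosl1, Jun and Myc were higher than in pECDCs, by 1.77-fold, 1.48-fold and 1.24-fold. These 3 genes made up all calls among the 10, at an adjusted p under 0.05 (Benjamini-Hochberg, quasi-likelihood test in edgeR) over 13752 genes, of which 7.21% were called higher. None of the 10 was called lower, against 9.21% of all tested genes, and none was lower at an unadjusted p under 0.05 or by DESeq2 or limma. Without iECDC replicate 3 the calls numbered 5, with Egr1 and Fosb also higher, and with all 9 libraries in the fit only Jun was called. The median log2 fold change of the 10 genes was 0.27, against 0.0 over all genes tested.

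In the SBT group, Atf3 rose 6.42-fold and Jund 1.61-fold over iECDCs, while Fosb fell to 0.248 of its iECDC level. The 2 genes called higher stand beside 16.0% of 13559 tested genes, and the 1 called lower beside 14.0%. The calls numbered 7 without SBT replicate 2, with Egr1 higher and Fosl1, Junb and Myc lower in addition. Without both SBT replicate 2 and iECDC replicate 3 there were 8, with Fosl2 also higher. The fold changes of the 10 genes lay on both sides of 0, with a median log2 fold change of -0.05 against 0.0 over all genes.

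Against pECDCs, Atf3, Jund, Jun, Egr1 and Fosl2 were higher in the SBT group and Fosb was lower. The 5 genes called higher stand beside 17.9% of 14015 tested genes and the 1 called lower beside 17.0%. The calls numbered 9 without SBT replicate 2, with Fosl1, Junb and Myc lower in addition. Without pECDC replicate 1 or pECDC replicate 2 there were 4, Jund and Fosl2 being lost. The comparisons share libraries pairwise, so a gene's values in them are not independent, and in bulk RNA fewer cells that express a gene and less RNA per cell cannot be told apart.

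**Figure D1:**
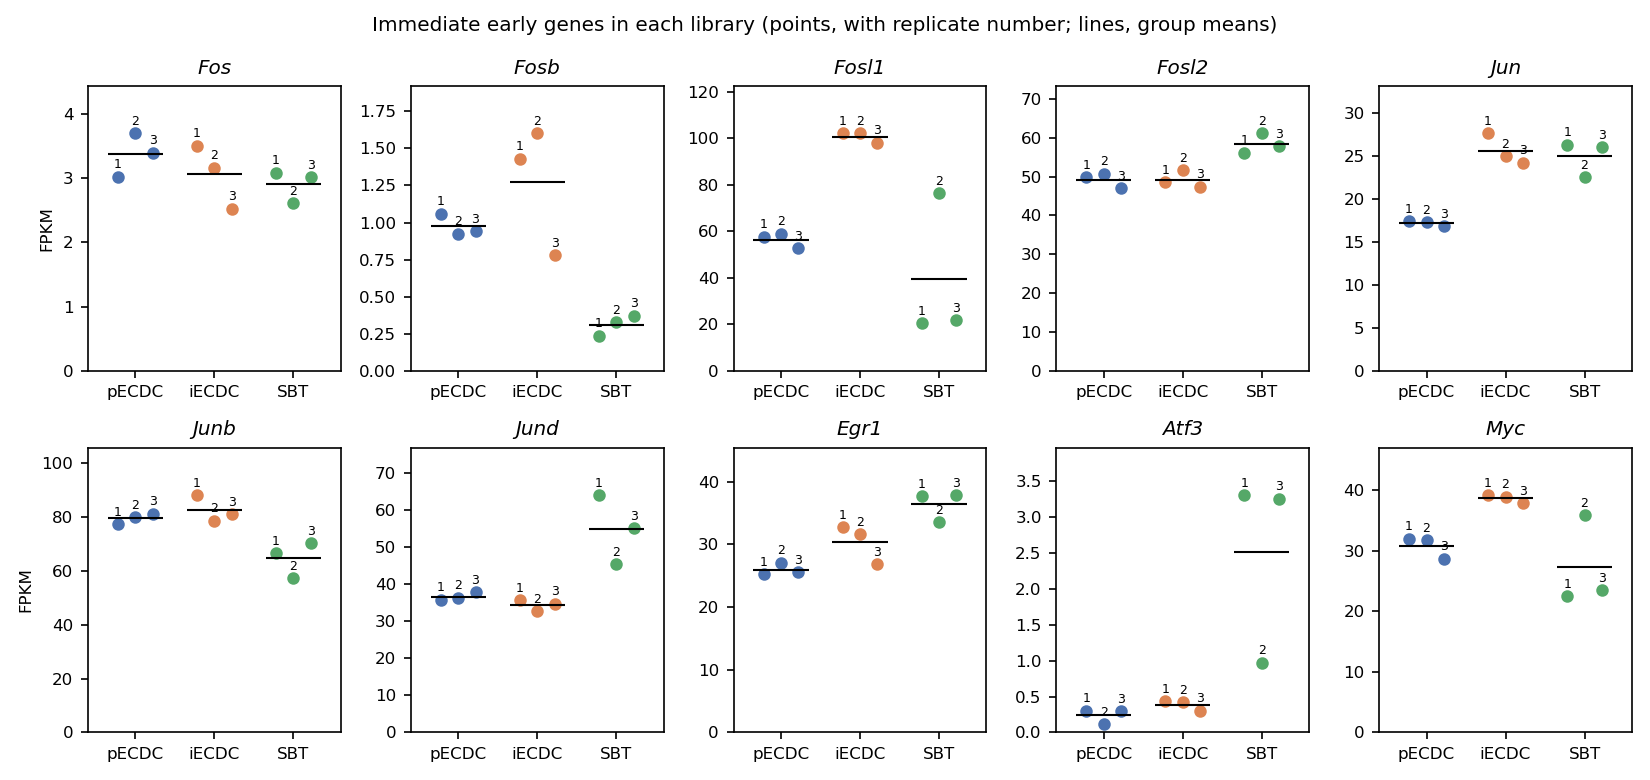
Level of the 10 genes in each library as FPKM (fragments scaled to the length of the gene and the total of the library), with the replicate number above each point and a line at the group mean (n = 3). SBT replicate 2 sits apart from the other SBT points for Fosl1 at 76.5, Atf3 at 0.971 and Myc at 35.9 FPKM, and Fosb in the SBT group, at 0.237 to 0.372, lies below every other library.

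Levels between genes were compared as FPKM, which is per gene length. In pECDCs, Junb led at 79.5 ± 2.03 FPKM (SD, n = 3), followed by Fosl1, Fosl2, Jund, Myc, Egr1 and Jun, and no neighbours in this order overlapped over the libraries. Fos, Fosb and Atf3 were far below, at 3.37 ± 0.340, 0.977 ± 0.0766 and 0.239 ± 0.106 FPKM. In iECDCs Fosl1 took the first place at 101 ± 2.37 FPKM, above Junb at 82.7 ± 4.93, and the neighbours Jund and Egr1, and Egr1 and Jun, overlapped. In the SBT group all neighbours from Junb down to Jun overlapped, and Atf3, lowest of the 10 in both untreated groups, overlapped Fos.

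Fosl1, which encodes the FOS protein FRA-1, had the largest log2 fold change of the 10 between iECDCs and pECDCs. Its level was 57.7, 58.9 and 52.7 FPKM in pECDC replicates 1, 2 and 3 and 102, 102 and 98.1 FPKM in iECDC replicates 1, 2 and 3. Every iECDC library lay above every pECDC library. The log2 fold change was 0.82 (SE 0.0654, edgeR adjusted p = 7.62e-05) and 0.85 without iECDC replicate 3, and with the 9 libraries in 1 fit it was 0.83 with an adjusted p of 0.284 and was not called. In SBT replicates 1, 2 and 3 the level was 20.6, 76.5 and 21.9 FPKM, all below the iECDC libraries, with replicates 1 and 3 also below the pECDC libraries and replicate 2 above them. The log2 fold change against iECDCs was -1.34 (SE 0.457, 95% interval -2.38 to -0.29, edgeR adjusted p = 0.0578) and did not pass the threshold. Without SBT replicate 2 it was -2.24 (SE 0.0965, edgeR adjusted p = 4.48e-07), and without both libraries that stand apart -2.26. It passed in 6 of 13 alternatives, limma and the fit of all 9 libraries among them, but not by DESeq2. Against pECDCs the value was -0.50 (95% interval -1.62 to 0.62), and without SBT replicate 2 it was -1.40 (edgeR adjusted p = 5.48e-13).

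Fosl2, which encodes FRA-2, had the smallest SD of the 10 over the 9 libraries, at 0.132 on the log2(FPKM + 1) scale. It measured 49.9, 50.8 and 47.0 FPKM in the pECDC libraries, 48.5, 51.6 and 47.4 in the iECDC libraries and 56.2, 61.1 and 57.9 in the SBT libraries. The untreated groups overlapped, with a log2 difference of -0.02 (95% interval -0.16 to 0.13), and all SBT libraries lay above both. The SBT log2 fold change was 0.25 over pECDCs (SE 0.0741, edgeR adjusted p = 0.0351), a call kept in 1 of the 6 fits that left out a library, that without SBT replicate 2 (0.22, adjusted p = 3.14e-04). Over iECDCs it was 0.26 (95% interval 0.01 to 0.51, edgeR adjusted p = 0.106), and without SBT replicate 2 it was 0.22 (adjusted p = 0.0702).

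Fosb, a FOS protein of the acute response, was low and lowest in the SBT group. Its reads numbered 115 to 163 per pECDC library, 75 to 180 per iECDC library and 26 to 43 per SBT library. The levels were 1.06, 0.925 and 0.940 FPKM in pECDCs, 1.43, 1.60 and 0.782 in iECDCs and 0.237, 0.327 and 0.372 in SBT libraries. The SBT libraries did not overlap either untreated group, while iECDC replicate 3 lay below all pECDC libraries and the other iECDC libraries above them. Fosb fell by 2.01 on the log2 scale from iECDCs to the SBT group (SE 0.316, edgeR adjusted p = 0.00389) and by 1.63 from pECDCs (SE 0.197, edgeR adjusted p = 0.00158). Both calls held in each alternative run, with log2 fold changes of -2.05 and -1.67 without SBT replicate 2 and of -2.29 for the first without both libraries that stand apart. Without iECDC replicate 3 the first was -2.27. Between iECDCs and pECDCs the value was 0.37 (95% interval -0.15 to 0.89), and without iECDC replicate 3 it was 0.61 (edgeR adjusted p = 0.00150).

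Fos, the archetype of the family, passed the threshold in no comparison and under no alternative run. It measured 3.02, 3.69 and 3.39 FPKM in pECDCs, 3.50, 3.16 and 2.52 in iECDCs and 3.08, 2.61 and 3.01 in the SBT group, from 91 to 186 reads. The 3 groups overlapped. The log2 fold changes were -0.14 (95% interval -0.48 to 0.20) between iECDCs and pECDCs, -0.07 (-0.50 to 0.36) between SBT and iECDCs and -0.21 (-0.53 to 0.12) between SBT and pECDCs. Whether the SBT changes of Fos and Fosb differ was not tested.

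Jun, a strongly activating partner of the FOS proteins, was higher in both passage 30 groups than in pECDCs. It measured 17.4, 17.3 and 16.8 FPKM in pECDCs, 27.6, 25.0 and 24.2 in iECDCs and 26.3, 22.5 and 26.0 in the SBT group. The pECDC libraries lay below all others, and the iECDC and SBT libraries overlapped. The log2 fold change was 0.56 in iECDCs (SE 0.0703, edgeR adjusted p = 9.86e-04) and 0.55 in the SBT group (SE 0.0828, edgeR adjusted p = 0.00346), both over pECDCs, and both held in each alternative run. The first was 0.61 without iECDC replicate 3 and the second 0.62 without SBT replicate 2. Between SBT and iECDCs it was -0.03 (95% interval -0.28 to 0.23). The antisense gene Junos, which overlaps Jun, had 5 to 30 counts.

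Junb, a JUN protein with weaker activity that can oppose Jun, was the most abundant JUN family gene in every library. It measured 77.3, 80.0 and 81.2 FPKM in pECDCs, 88.2, 78.7 and 81.1 in iECDCs and 66.7, 57.2 and 70.4 in the SBT group. The untreated groups overlapped and the SBT libraries lay below both. The SBT log2 fold change was -0.34 against iECDCs (95% interval -0.61 to -0.07, edgeR adjusted p = 0.0612) and -0.29 against pECDCs (-0.51 to -0.07, edgeR adjusted p = 0.0507). Neither passed in the fits reported, and without SBT replicate 2 they were -0.26 (adjusted p = 0.0449) and -0.20 (adjusted p = 6.68e-04). The first passed in 4 of 13 alternatives and the second in 7 of 12, DESeq2 among both. Junb overlaps Prdx2 on the opposite strand, which had 5649 to 8552 counts. The strand setting of the counting is not given in the sources used here, so reads of this pair may be shared.

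Jund, a JUN protein known for its steady presence in resting cells, rose in the SBT group. It measured 35.8, 36.4 and 37.8 FPKM in pECDCs, 35.7, 32.7 and 34.8 in iECDCs and 64.1, 45.5 and 55.1 in the SBT group, so that the lowest SBT library, replicate 2, was above all 6 untreated libraries. The log2 fold change was 0.69 over iECDCs (SE 0.138, edgeR adjusted p = 0.00947), called in each alternative run, and 0.59 over pECDCs (SE 0.126, edgeR adjusted p = 0.0119). The second call was lost without pECDC replicate 1 (0.57, adjusted p = 0.0568) or pECDC replicate 2 (0.58, adjusted p = 0.0537). The values were 0.80 and 0.71 without SBT replicate 2, and 0.81 over iECDCs without both libraries that stand apart. The value over iECDCs was 0.68 without iECDC replicate 3 and 0.56 without SBT replicate 1. Between iECDCs and pECDCs the log2 difference was -0.11 (95% interval -0.25 to 0.04).

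**Figure D2:**
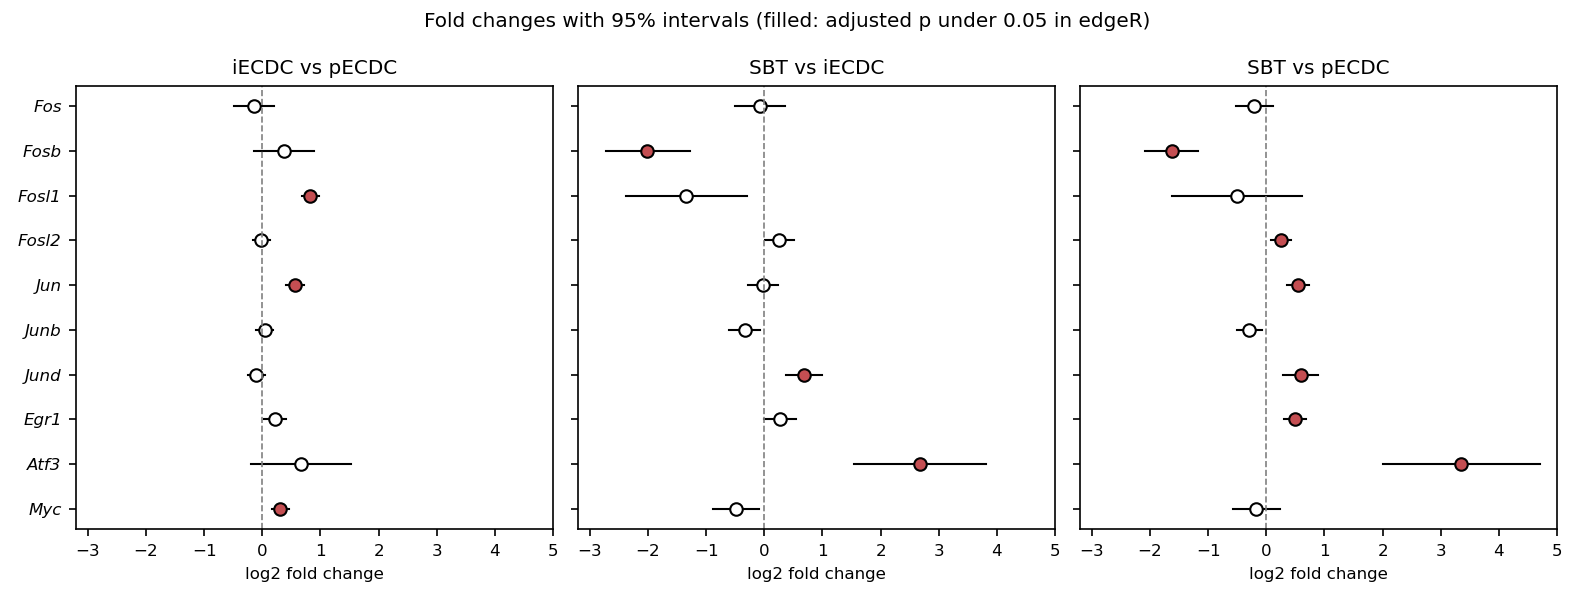
Log2 fold changes of the 10 genes from edgeR with 95% intervals (lines), 1 panel per comparison (3 libraries against 3). Filled points have an adjusted p under 0.05. Atf3 at 2.68 and 3.35 lies farthest to the right in both SBT panels, and the wide Fosl1 interval in the SBT vs iECDC panel runs from -2.38 to -0.29.

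Egr1, a zinc finger factor induced through SRF, had group means of 26.0 ± 0.975, 30.4 ± 3.11 and 36.4 ± 2.43 FPKM (SD, n = 3) in pECDCs, iECDCs and the SBT group. It measured 25.3, 27.1 and 25.6 FPKM in pECDCs, 32.8, 31.6 and 26.9 in iECDCs and 37.7, 33.6 and 37.9 in the SBT group. The SBT libraries lay above all others, and iECDC replicate 3 overlapped the pECDC libraries. The SBT log2 fold change over pECDCs was 0.50 (SE 0.0785, edgeR adjusted p = 0.00398) and held in each alternative run, at 0.55 without SBT replicate 2. The intermediate differences were 0.22 between iECDCs and pECDCs (95% interval 0.03 to 0.40, edgeR adjusted p = 0.109) and 0.27 between SBT and iECDCs (-0.0049 to 0.54, edgeR adjusted p = 0.121). Without iECDC replicate 3 the first was 0.30 (adjusted p = 9.92e-05), and without SBT replicate 2 the second was 0.32 (adjusted p = 0.0323).

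Atf3, a stress-induced bZIP factor that pairs with JUN proteins, was near the limit of detection in untreated cells, with 5 to 16 reads per pECDC library and 10 to 19 per iECDC library, against 44 to 127 per SBT library. Its levels were 0.303, 0.117 and 0.298 FPKM in pECDCs, 0.437, 0.424 and 0.302 in iECDCs and 3.31, 0.971 and 3.26 in the SBT group. Each SBT library was above all untreated libraries, and SBT replicate 2 was the lowest of the SBT group. The log2 fold change was 2.68 over iECDCs (SE 0.496, edgeR adjusted p = 0.00718) and 3.35 over pECDCs (SE 0.573, edgeR adjusted p = 0.00525), and both calls held in each alternative run. Without SBT replicate 2 the values were 3.07 and 3.73, and the first was 2.93 without both libraries that stand apart. The value over iECDCs was 2.52 without iECDC replicate 3 and 2.44 without SBT replicate 1. Between iECDCs and pECDCs the value was 0.66, with a 95% interval of -0.20 to 1.52 at this depth, and 0.80 (adjusted p = 0.161) without iECDC replicate 3.

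Myc, the factor that binds DNA together with MAX, was higher in iECDCs than in pECDCs. It measured 32.0, 31.7 and 28.7 FPKM in pECDCs, 39.2, 38.9 and 37.8 in iECDCs and 22.5, 35.9 and 23.5 in the SBT group. The iECDC libraries lay above all others, and in the SBT group replicates 1 and 3 lay below every untreated library while replicate 2 lay between the untreated groups. The log2 fold change in iECDCs over pECDCs was 0.31 (SE 0.0649, edgeR adjusted p = 0.0117), and 0.33 without iECDC replicate 3. That call was lost without pECDC replicate 2 (0.34, adjusted p = 0.0534), without pECDC replicate 3 (0.27, adjusted p = 0.0736) and with all 9 libraries in the fit (0.32, adjusted p = 0.285). The SBT log2 fold change against iECDCs was -0.49 (95% interval -0.89 to -0.09, edgeR adjusted p = 0.0643), and without SBT replicate 2 it was -0.74 (SE 0.0880, edgeR adjusted p = 1.60e-04). It passed in 5 of 13 alternatives, DESeq2 and the fit of all 9 libraries among them, but not by limma. Against pECDCs it was -0.17 (95% interval -0.57 to 0.24), and without SBT replicate 2 it was -0.41 (edgeR adjusted p = 3.63e-06).

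**Figure D3:**
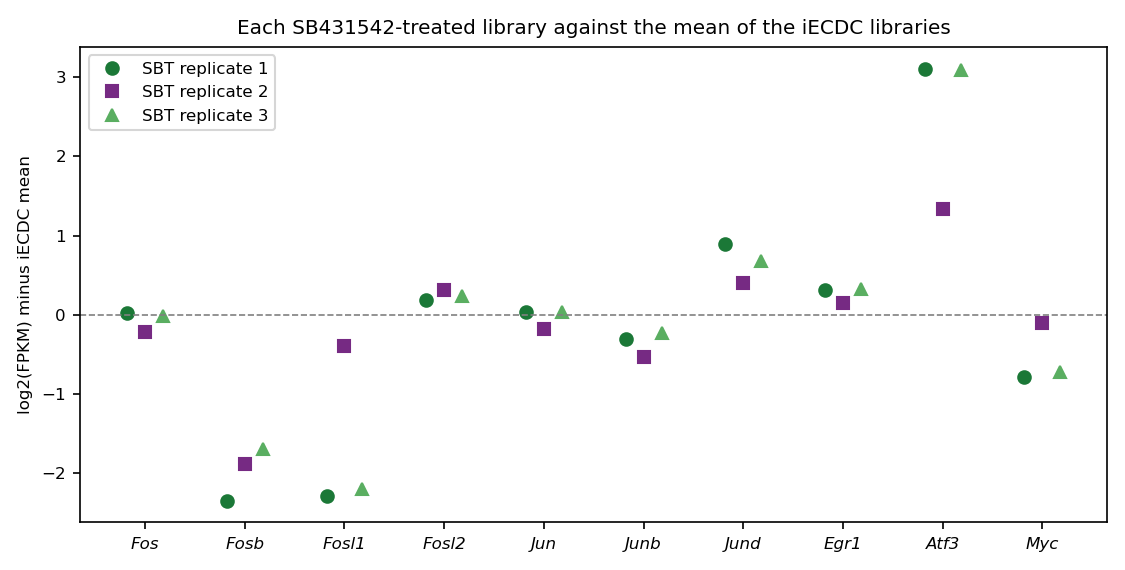
Log2 FPKM of each SBT library minus the mean log2 FPKM of the 3 iECDC libraries, for the 10 genes. SBT replicate 2 (squares) lies nearer to 0 than the other SBT libraries for Fosl1 (-0.40 against -2.29 and -2.20), Atf3 (1.34 against 3.11 and 3.09) and Myc (-0.11 against -0.78 and -0.72), and farther from 0 for Junb (-0.53 against -0.31 and -0.23).

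The position of SBT replicate 2 was not the same for all members. It held a fraction of the difference of the other SBT libraries from the iECDC mean for Fosl1, Myc, Atf3, Jund and Egr1, lay between them for Fosb (-1.89 against -2.35 and -1.70 on the log2 FPKM scale), and was beyond them for Fosl2 and Junb. The fibroblast and mesenchymal markers Pdgfra, Pdgfrb, Col1a1 and Dcn summed to 686 to 701 FPKM in pECDCs, 524 to 635 in iECDCs and 877, 399 and 776 in SBT replicates 1, 2 and 3, and 3 of the 4 were called higher in SBT than in iECDC libraries (4 without SBT replicate 2). All 4 were called lower in iECDCs than in pECDCs, where Fosl1, Jun and Myc were higher (median log2 fold change -0.53). Those lower calls numbered 4 without iECDC replicate 3, 2 without pECDC replicate 2, pECDC replicate 3, iECDC replicate 1 or iECDC replicate 2, and 1 with all 9 libraries. Against pECDCs 3 were higher in the SBT group, 4 without SBT replicate 2 and 1 without any other 1 library. The 5 epicardial and mesothelial markers summed to 19.4 to 25.8 FPKM in untreated libraries and to 42.9, 26.1 and 45.1 in SBT replicates 1, 2 and 3, and 3 of the 4 tested were called higher than in iECDCs (4 without SBT replicate 2). Of the 4 haematopoietic markers 2 were tested, and Cd68 was lower in SBT than in pECDC libraries (log2 fold change -0.86, edgeR adjusted p = 0.0220). It was called in 2 of 6 fits that left out a library, with -0.95 without SBT replicate 2. Csf1r, the other one tested, had 260 to 679 counts per library and was not called in any comparison in the fits reported. The fibroblast and the epicardial sum were lowest of the SBT group in replicate 2. Col1a1 and Tbx18 made up most of these sums, at 346 and 22.9 FPKM in that library. Pdgfra, Pdgfrb and Dcn, at 17.5, 31.9 and 3.43 FPKM there, were also lowest of the SBT group but lay above every untreated library. Of the other epicardial markers, Wt1 was lowest there, Tcf21 and Upk3b lay between the other SBT libraries and Msln was highest. The part of these markers in the results on the 10 genes was not tested.

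The make-up of the FOS and JUN families is given as shares of their summed FPKM, without a test. Fosl1 made up 51.3% ± 0.586 (SD, n = 3) of the FOS family in pECDCs, 65.3% ± 0.737 in iECDCs and 35.5% ± 16.4 in the SBT group, where replicate 2 had 54.4% and the lowest library 25.8%. Fosl2 made up 44.8% ± 0.361, 31.9% ± 0.651 and 61.1% ± 15.2 of it in the same order. Fos and Fosb together were a small remainder, Fos at 1.69% to 3.84% and Fosb at 0.233% to 1.01% over all libraries. In the JUN family the share of Junb was 59.6% ± 0.346 in pECDCs, 57.9% ± 0.252 in iECDCs and 44.8% ± 2.14 in the SBT group. Jund made up 27.5% ± 0.351, 24.1% ± 0.611 and 37.8% ± 2.57, and Jun 12.9% ± 0.500, 17.9% ± 0.551 and 17.3% ± 0.611. The SBT libraries did not overlap the untreated ones in the shares of Junb and Jund, SBT replicate 2 included.

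**Figure D4:**
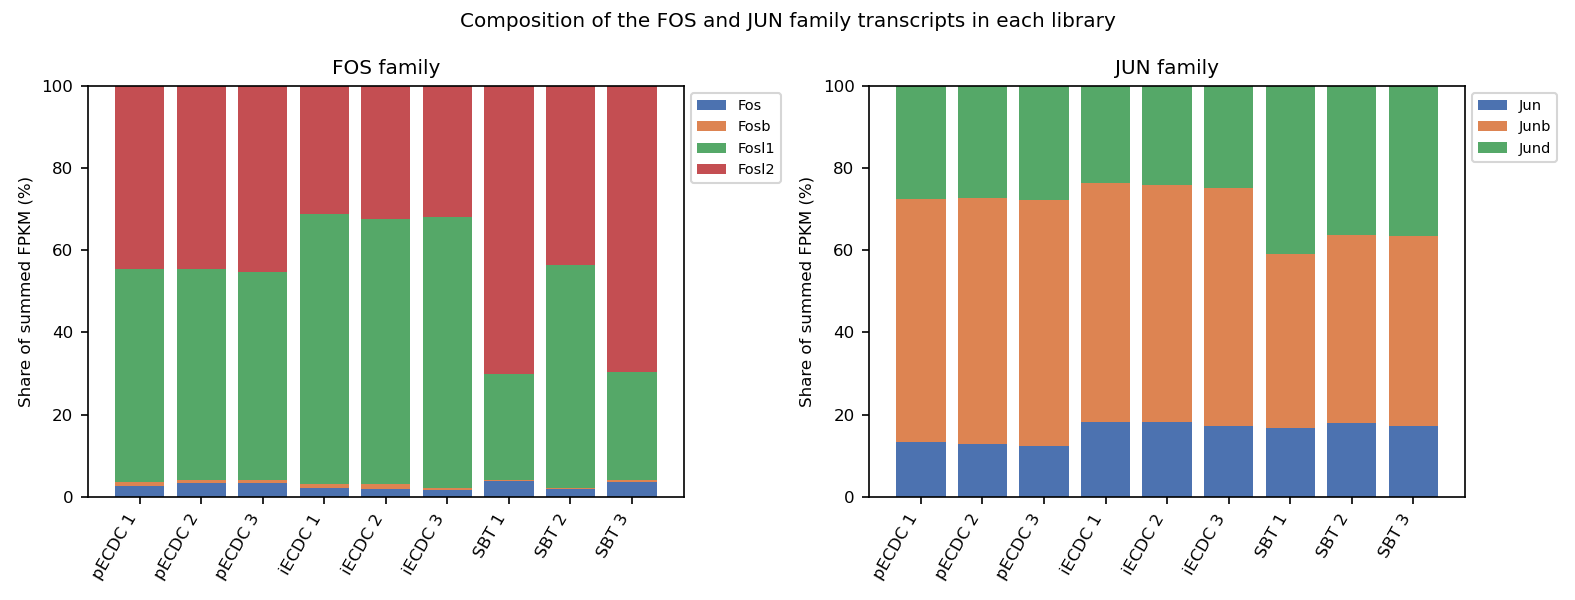
Share of each gene in the summed FPKM of the FOS family (left) and the JUN family (right), stacked for each of the 9 libraries. Fosl1 takes 64.5% to 65.9% of the FOS family in iECDC libraries, and Jund takes 36.3% to 40.8% of the JUN family in SBT libraries against 23.6% to 27.9% in the untreated ones.

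Genes that act before, beside and after the 10 members were counted in 8 lists, in which Maff, Dusp1, Srf, Creb1 and Ctgf each appear more than once. Of all tested genes, 7.21% were called higher and 9.21% lower in iECDCs against pECDCs. These shares were 16.0% and 14.0% for SBT against iECDCs, and 17.9% and 17.0% for SBT against pECDCs. All list counts stand beside these shares and were not tested against them. A count near them is not particular to a list. Of the kinases, other signalling genes and SRF, ETS and CREB factors that signal to these promoters, 27 were tested. Between iECDCs and pECDCs 2 were higher by edgeR, Srf and Hras, and 0 were lower by edgeR, DESeq2 or limma, with 2 lower at an unadjusted p under 0.05. There were 0 calls without any 1 of the pECDC libraries and 0 with all 9 libraries. Without iECDC replicate 3, 4 were higher and 3 lower. Between SBT and iECDCs 3 were higher and 5 lower, among the latter Srf, at 29.9 ± 7.69 FPKM against 49.6 ± 7.89 (log2 fold change -0.72, edgeR adjusted p = 0.0248, called in 1 of 6 fits that left out a library). That 1 fit was the one without SBT replicate 2, where the log2 fold change of Srf was -0.95 (edgeR adjusted p = 3.91e-04). The counts were 5 and 9 without SBT replicate 2, 9 and 11 without both libraries that stand apart, and 0 and 2 without iECDC replicate 1, 1 and 1 without iECDC replicate 2, 1 and 2 without SBT replicate 1 and 2 and 2 without SBT replicate 3. Between SBT and pECDCs 8 were higher, with Mapk3, which encodes the kinase ERK1, at 148 ± 3.05 against 109 ± 1.63 FPKM (log2 fold change 0.45, edgeR adjusted p = 0.00322, and 0.46 without SBT replicate 2), and 8 were lower. These were 3 or 4 higher and 3 lower without any 1 pECDC library, 4 and 4 without SBT replicate 1, 5 and 4 without SBT replicate 3 and 11 and 12 without SBT replicate 2.

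Of 34 other immediate early genes, 11 were higher and 2 lower in iECDCs than in pECDCs (median log2 fold change 0.05). Maff, a small MAF factor, was at 39.1 ± 0.891 against 22.4 ± 0.291 FPKM (log2 fold change 0.79, SE 0.0570, edgeR adjusted p = 4.70e-05), and Klf4, a Krüppel-like factor, fell from 31.7 ± 0.725 to 24.1 ± 2.23 (-0.41, edgeR adjusted p = 0.00721), with 0.77 and -0.35 for the pair without iECDC replicate 3. The counts were 5 or 6 higher and 1 lower without any 1 pECDC library, 19 and 5 without iECDC replicate 3 and 2 and 1 with all 9 libraries. In the SBT group 4 were higher and 14 lower than in iECDCs (median -0.54), and 5 and 16 against pECDCs (median -0.44). Ctgf, a secreted matrix protein and TGF-β target, had the largest fall of the list, from 444 ± 13.9 to 43.0 ± 24.2 FPKM (log2 fold change -3.36, SE 0.356, edgeR adjusted p = 0.00102), and Nfkbia, the inhibitor of NF-κB, rose from 13.9 ± 0.703 to 25.7 ± 5.74 (0.90, edgeR adjusted p = 0.00850), with -3.93 and 1.07 for the pair without SBT replicate 2. The counts without SBT replicate 2 were 5 and 19 against iECDCs (5 and 24 without both libraries that stand apart) and 7 and 21 against pECDCs, with 3 and 9 without iECDC replicate 1 in the former and 2 and 10 without any 1 pECDC library or SBT replicate 3 and 3 and 10 without SBT replicate 1 in the latter.

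Of the other AP-1 and bZIP factors, which can pair with FOS and JUN proteins or bind related sites, 24 were tested in iECDCs against pECDCs, with 3 higher and 4 lower. The calls numbered 2 or 3 without any 1 pECDC library, 12 without iECDC replicate 3 and 0 with all 9 libraries. Against iECDCs, 7 of 24 were higher in the SBT group and 0 lower by edgeR. The count of lower genes was also 0 by DESeq2 and limma, but 3 at an unadjusted p under 0.05. It was 1 without a filter or with all 9 libraries, 2 without iECDC replicate 3, 4 without SBT replicate 2, where 10 were higher, and 7 without both, where 12 were higher. Maf rose from 0.111 ± 0.0282 to 5.80 ± 3.72 FPKM (log2 fold change 5.70, SE 0.691, edgeR adjusted p = 0.00158), with 1.58 in its lowest SBT library, and Cebpd, a C/EBP factor, rose from 26.9 ± 1.05 to 67.9 ± 12.2 (1.35, SE 0.150, edgeR adjusted p = 0.00117), with 6.14 and 1.49 for the pair without SBT replicate 2. Against pECDCs 7 of 25 were higher and 2 lower, and 14 and 7 without SBT replicate 2.

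Of the AP-1 target genes, 6 of 21 were higher and 4 lower in iECDCs than in pECDCs. Hbegf, an EGF family ligand, was at 35.5 ± 3.81 against 21.9 ± 0.735 FPKM (log2 fold change 0.69, edgeR adjusted p = 0.00103), while the matrix metalloproteinase gene Mmp3 fell from 9.70 ± 1.31 to 0.719 ± 0.248 (-3.73, SE 0.215, edgeR adjusted p = 1.15e-05), with 0.77 and -3.49 for the pair without iECDC replicate 3. SBT libraries had 2 of 20 higher and 11 lower than iECDCs (median -1.10). Ptgs2, which encodes the prostaglandin enzyme COX-2, fell from 150 ± 67.3 to 7.77 ± 8.19 FPKM (log2 fold change -4.26, SE 0.764, edgeR adjusted p = 0.00641) and Hbegf to 6.10 ± 5.09 (-2.52, edgeR adjusted p = 0.00785). Mmp3 went the other way, to 229 ± 156 FPKM (8.29, SE 0.840, edgeR adjusted p = 9.12e-04), with 48.4 in its lowest SBT library. Without SBT replicate 2 the values were -5.61, -3.48 and 8.76, and the list had 4 higher and 14 lower, or 4 and 16 without both libraries that stand apart. The lower genes numbered 6 without iECDC replicate 1 and 7 without iECDC replicate 2 or SBT replicate 1. Against pECDCs 2 of 21 were higher and 10 lower, with 4 and 16 without SBT replicate 2, 1 and 5 without pECDC replicate 2, 1 and 6 without pECDC replicate 3 and 1 and 7 without pECDC replicate 1, SBT replicate 1 or SBT replicate 3. Between iECDCs and pECDCs the list had 2 higher and 2 lower without any 1 pECDC library, 3 and 4 without iECDC replicate 1, 2 and 4 without iECDC replicate 2, 10 and 7 without iECDC replicate 3 and 0 and 3 with all 9 libraries.

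In the MYC network, the genes for partners, antagonists and regulators of MYC, 0 of 15 were higher and 3 lower in iECDCs than in pECDCs. Among the latter was Mnt, a repressor that competes for MAX, at 8.57 ± 0.268 against 11.1 ± 0.546 FPKM (log2 fold change -0.38, edgeR adjusted p = 0.00604). By DESeq2 and limma 0 were higher too, against 1 at an unadjusted p under 0.05 in edgeR. The counts were 2 higher and 3 lower without iECDC replicate 2 and 1 and 5 without iECDC replicate 3, and 0 and 1 with all 9 libraries. SBT libraries had 6 higher than iECDCs and 1 lower. Mnt rose to 17.0 ± 1.23 FPKM (log2 fold change 1.0, SE 0.101, edgeR adjusted p = 9.05e-04) and the antagonist gene Mxd4 from 4.55 ± 0.539 to 9.91 ± 2.59 (1.14, edgeR adjusted p = 0.00595), while Max, the obligate partner, fell from 20.9 ± 2.26 to 13.4 ± 1.07 (-0.63, edgeR adjusted p = 0.00777). These 3 calls held in all 6 fits that left out a library, with 1.05, 1.34 and -0.69 without SBT replicate 2. The list had 5 higher and 2 lower without SBT replicate 2, 6 and 3 without iECDC replicate 3 and 7 and 5 without both, but 2 and 1 without iECDC replicate 2 or SBT replicate 1 and 3 and 1 without SBT replicate 3. Against pECDCs 5 were higher and 3 lower, with 6 and 4 without SBT replicate 2, 2 and 2 without pECDC replicate 1 and 3 and 2 without pECDC replicate 2 or 3.

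Of 30 MYC target genes, mostly of ribosome assembly, 15 were higher and 0 lower in iECDCs than in pECDCs, with a median log2 fold change of 0.23 against 0.0 over all genes. Rrp9, which encodes a nucleolar protein of small-subunit ribosomal RNA processing, was at 26.1 ± 3.58 against 18.3 ± 0.166 FPKM (log2 fold change 0.50, edgeR adjusted p = 0.00738, and 0.38 without iECDC replicate 3). The higher genes numbered 2 or 3 without any 1 pECDC library, 10 without iECDC replicate 2 and 24 without iECDC replicate 3, and 0 with all 9 libraries, and 0 were lower in each of these, by DESeq2 and limma and at an unadjusted p under 0.05. SBT libraries had 20 of 30 lower than iECDCs by edgeR and 0 higher, also by DESeq2, limma and at an unadjusted p under 0.05 (median -0.73), with Rrp9 among them at 10.8 ± 5.18 FPKM (-1.26, edgeR adjusted p = 0.0149, called in 4 of 6 fits that left out a library, and -1.73 without SBT replicate 2). The count depended on single libraries, with 28 lower without SBT replicate 2, 30 without both libraries that stand apart, 9 without iECDC replicate 3, 4 without SBT replicate 1 and 5 without iECDC replicate 1, iECDC replicate 2 or SBT replicate 3. Against pECDCs 8 were lower and 0 higher, 0 also by DESeq2, limma and at an unadjusted p under 0.05 (median -0.47), and 29 without SBT replicate 2, 4 without SBT replicate 3, 3 without SBT replicate 1 and 2 without any 1 pECDC library. The summed FPKM of the list was 2853 to 2884 in pECDCs, 3230 to 3329 in iECDCs and 1994, 2986 and 1972 in SBT replicates 1, 2 and 3, so that replicate 2 lay between the untreated groups, as for Myc itself. That library held a median 48.4% of the SBT log2 difference from iECDCs over 2345 genes. A smaller difference in it is therefore not particular to Myc or this list.

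TGF-β target genes, as a check on the treatment, had 2 of 19 higher and 8 lower in SBT than in iECDC libraries (median -1.02). The counts were 7 and 11 without SBT replicate 2, 7 and 12 without both libraries that stand apart, and 1 and 7 without iECDC replicate 1, iECDC replicate 2, SBT replicate 1 or SBT replicate 3. Pmepa1, a TGF-β induced inhibitor of SMAD signalling, fell from 67.0 ± 3.28 to 3.38 ± 1.65 FPKM (log2 fold change -4.29, SE 0.311, edgeR adjusted p = 3.50e-04), while Tgfbi, which encodes a secreted matrix protein, rose from 0.608 ± 0.0784 to 7.01 ± 4.32 (3.53, edgeR adjusted p = 0.00405), with -4.77 and 3.96 for the pair without SBT replicate 2. Against pECDCs 1 of 19 was higher and 8 lower (5 and 12 without SBT replicate 2, 0 and 7 without pECDC replicate 2 or 3), and in iECDCs 3 of 20 were higher than in pECDCs and 5 lower (6 and 8 without iECDC replicate 3, 0 and 1 with all 9 libraries). The lower genes numbered 3 without any 1 pECDC library or iECDC replicate 2. Heat shock genes, which respond to handling and stress, had 0 of 16 higher (0 also by DESeq2, limma and at an unadjusted p under 0.05) and 5 lower in SBT than in iECDC libraries by edgeR, 0 (likewise) and 6 against pECDCs, and 1 and 1 in iECDCs against pECDCs. The SBT counts without SBT replicate 2 were 0 and 10 against iECDCs (0 and 11 without both libraries that stand apart) and 1 and 12 against pECDCs. Against iECDCs 0 were lower without iECDC replicate 1 and 1 without iECDC replicate 2, SBT replicate 1 or SBT replicate 3, and against pECDCs 3 were lower without pECDC replicate 2 or 3. In iECDCs against pECDCs 8 were higher and 1 lower without iECDC replicate 3, with 0 calls without any 1 pECDC library and 1 without iECDC replicate 1 or 2.

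**Figure D5:**
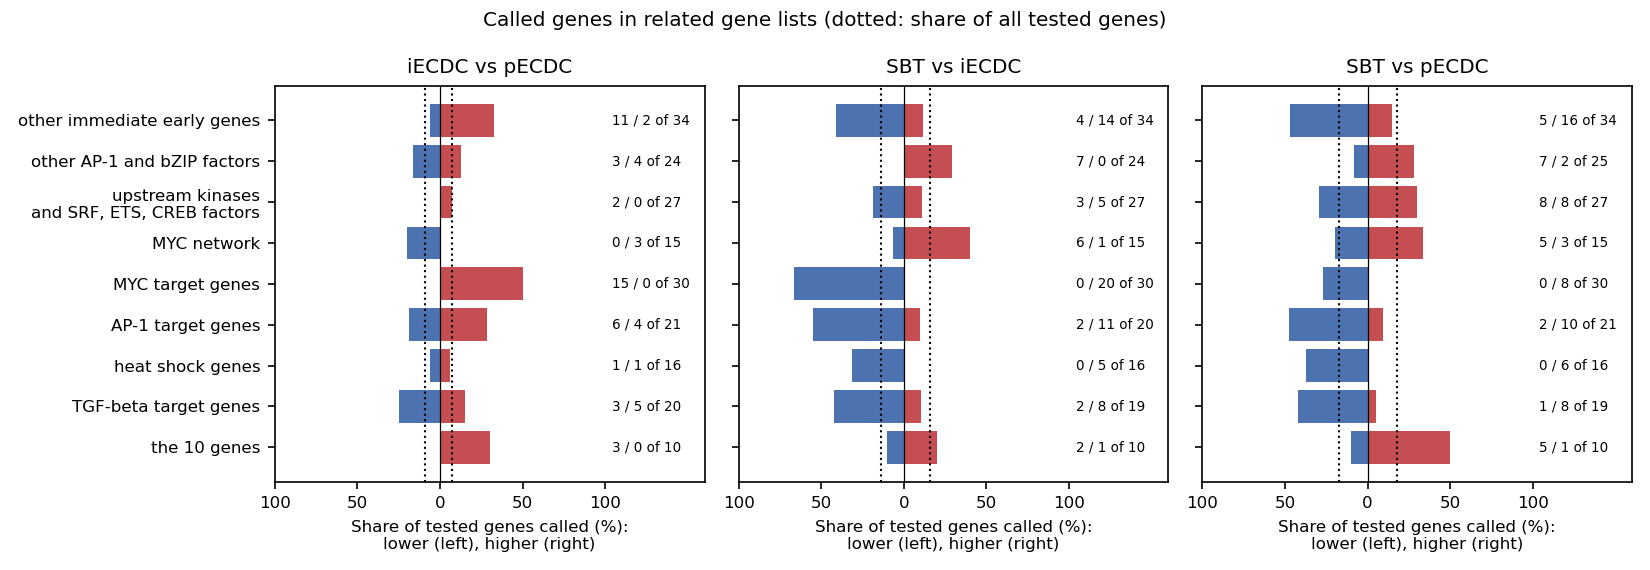
Share of the tested genes of each list called higher (right, red) and lower (left, blue) in each comparison, with the counts (higher / lower of tested) beside the bars and dotted lines at the share of all tested genes. MYC target genes have 15 of 30 higher in iECDCs over pECDCs and 20 of 30 lower in SBT than in iECDCs.

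For the 6 members whose log2(FPKM + 1) varied with an SD of at least 0.25 over the 9 libraries, the most similar genes were sought as those with the smallest root mean square difference of the centred values, among 2585 genes with a mean of at least 5 FPKM and an SD of at least 0.25. For Fosl1 these were Srxn1 (root mean square difference 0.126), Gclm (0.168) and Txnrd1 (0.183). Srxn1 had mean levels of 68.4, 114 and 48.8 FPKM in pECDCs, iECDCs and the SBT group. For Myc they were Dph2 (0.0519), Mrpl9 (0.0617) and Ncbp1 (0.0627), for Jund Arap1 (0.0392), Fam234a (0.0530) and Nnmt (0.0562), and for Jun Tbkbp1 (0.101), Gm42047 (0.110) and Ninj1 (0.125). For Atf3 they were Gstm1 (0.103), Clca3a1 (0.117) and Mapk8ip1 (0.147), and for Fosb Cflar (0.0754), Rasa1 (0.0781) and Otud6b (0.0791), a pair of members whose low FPKM the added 1 compresses. All points come from the same 9 libraries, with SBT replicate 2 among them, and the likeness is a description.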

How the data were processed

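RNA sequencing of 9 libraries was used, grouped by their labels. The authors deposited unnormalized read counts and FPKM values for each gene, with gene lengths, coordinates and their own fold changes and p-values, which were not used. Per the submitters' processing notes, Bowtie2 2.0.6, TopHat2 2.0.9 and the build mm9 were used, but 53499 of 54409 gene identifiers shared with GENCODE M21 had the same start and end on GRCm38, so the deposited coordinates are those of GRCm38. The counting program and its strand setting are not given in the sources used here. For library preparation the labels name a TruSeq kit and the paper other kits.

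The test on counts was that of edgeR 4.0.16 under R 4.3.3 (TMM, filterByExpr with a minimum count of 10 and a minimum total count of 15, quasi-likelihood test, Benjamini-Hochberg adjusted p under 0.05), each fit taking the 6 libraries of 2 groups, and p-values were adjusted over all tested genes. The common biological coefficient of variation was 0.0919 for iECDC against pECDC, 0.171 for SBT against iECDC and 0.144 for SBT against pECDC. Total counts of 16568306 to 23951392 left at most 19 reads for Atf3 in each untreated library. Alternatives were RLE size factors, no filter, a fit of all 9 libraries, a block for the replicate number, DESeq2 1.42.0, limma 3.58.1 on log2(FPKM + 1) and leaving out each library. Leaving out iECDC replicate 3 and SBT replicate 2 together was chosen after seeing the data. The scripts were tested on simulated data. Plots and tables came from python 3.11.15 with pandas 2.3.3, numpy 2.4.6 and matplotlib 3.10.9.

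The 10 genes, the 8 gene lists and the 6 marker lists were chosen with earlier results of these data known. Named genes were the 10 members, at most 2 genes per list, direction and comparison with the largest log2 fold change among those called and with a mean of at least 1 FPKM in the higher group, and the 3 genes most similar to a member. Of these, examples are given, and 1 gene is not reported here. Marker genes and Junos and Prdx2, which overlap members, are named for that relation only.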

Additional observations from a re-analysis of the deposited data

How the results depend on the processing

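Fits that left out 1 library gave 1036 to 4467 genes called between iECDCs and pECDCs, 1707 to 7001 between SBT and iECDCs and 2453 to 9188 between SBT and pECDCs, against 2258, 4061 and 4881 in the fits reported. The highest counts came without iECDC replicate 3 in the first and without SBT replicate 2 in the others. Calls among the 10 genes ranged from 2 to 5, 3 to 7 and 4 to 9 in the same order. With all 9 libraries in the fit, 671 genes and 1 of the 10 were called between iECDCs and pECDCs, and 8 of the 10 between SBT and iECDCs. Between SBT and iECDCs, 5 of the 10 were called without a filter and 5 by DESeq2. Without both libraries that stand apart, 8951 genes and 8 of the 10 were called. Fosl1 passed between SBT and iECDCs without a filter, with all 9 libraries, with the block, by limma, without SBT replicate 2 and without both. In all, 370 values of single genes were recomputed, of which 318 kept their direction and side of the threshold, 31 passed it in addition, 14 lost it and 7 changed sign, none of the 7 a called value.

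The sign changes were Fosl2 at 0.01 in iECDCs over pECDCs without pECDC replicate 2 and at 0.01 without iECDC replicate 3, Junb at -0.0049 without iECDC replicate 1, and, between SBT and iECDCs, Fos at 0.04 and Jun at 0.03 without iECDC replicate 1, Jun at 0.04 without SBT replicate 2 and at 0.00093 without both libraries that stand apart. Over the fits that left out 1 library these values ranged from -0.05 to 0.01 for Fosl2, from -0.0049 to 0.08 for Junb, from -0.20 to 0.04 for Fos and from -0.08 to 0.04 for Jun. The cause of these changes was not tested.

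Same-numbered libraries did not deviate together (correlations of -0.27 to 0.03), and not every library correlated best with its own number. No pairing by number was therefore seen. With so few libraries per group, these correlations cannot show whether same-numbered libraries shared a culture or preparation. With the replicate number as a block, 1791, 3038 and 3886 genes and 3, 4 and 5 of the 10 members were called in the same order, with Fosl1 gained between SBT and iECDCs and Fosl2 lost between SBT and pECDCs.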
